A study of Bos taurus with 2 samples.

Results

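The distal end of the long arm of the cattle Y chromosome was taken here as the interval from 57500001 to 59475000, the last 1.975 Mb before the chromosome end at 59476289. It was divided into 5 kb bins, and a bin was used if it held at least 5 CpGs with 10 or more PacBio reads. Of 395 bins in the interval, 389 met this rule, out of 11882 such bins on the whole chromosome. The rule used position, CpG number and read depth but no methylation level. The other 6 bins lay next to each other, from 59175001 to 59205000, within an array of RBMY genes where PacBio depth fell below the minimum.

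Lung genomic DNA of Bos taurus was read with PacBio HiFi sequencing and with nanopore sequencing (ONT, for Oxford Nanopore Technologies), and each of the 2 platforms gave 1 library of CpG methylation calls. The assembled chromosome is that of an F1 fetus of a Wagyu and a Charolais parent at 120 days of gestation. With a single library per platform no test across samples was possible, and every SD below describes bins, CpGs or gene copies within a library and not animals. On PacBio the level of a CpG is the modification score in percent that the calling model gave it, which need not equal a share of reads. On ONT it is the percent of calls that were methylated, averaged over both strands. The level of a bin is the unweighted mean over its CpGs.

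The interval held 15605 CpGs in the ONT data and 15412 in the PacBio data, of which 15309 had at least 10 PacBio reads. The PacBio reads gave 745750 observations over these sites. Median depth was 46 reads per CpG, with a 5th percentile of 31 and a 95th percentile of 61. No read counts accompany the ONT percentages, and ONT depth is therefore unknown. As a measure of counting error in a typical case, 42 modified reads of 46 at a CpG would give 91.3%. The 95% Wilson interval of this share runs from 79.7% to 96.6%. Such intervals cover counting error only.

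Methylation of cytosine in CpG dinucleotides is the main DNA methylation of mammals. Most CpGs of a mammalian genome are methylated in somatic tissue, while CpG-rich gene starts, called CpG islands, are often free of methylation. The male-specific long arm of bovine Y chromosomes carries ampliconic genes, which are families of near-identical copies that act mainly in the testis. SRY, the gene that starts testis development, and RBMY, a family of RNA-binding proteins of male germ cells, lie in the interval studied here. Towards the ends of chromosomes lie subtelomeric repeats and then the telomere, a simple repeat that contains no CpG.

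The distal end averaged 60.6% on PacBio (SD 13.9 over 389 bins), and the ONT mean over the same CpGs was 51.1% (SD 12.3). PacBio levels of single bins ran from 17.8% to 95.1% with a median of 59.3%, and ONT levels from 14.0% to 85.7% with a median of 49.9%. The ampliconic long arm from 24 Mb to the start of the interval had lower means, 47.4% on PacBio (SD 10.03) and 39.9% on ONT (SD 8.52) over 6700 bins. The distal end was thus 13.2 percentage points higher on PacBio and 11.2 points higher on ONT. Both differences were about as large as the SD between bins, and the ranges overlapped. Neither difference could be tested, since both stretches belong to 1 chromosome.

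CpGs were slightly fewer in the distal end than in the rest of the ampliconic arm, with a median of 34 per bin against 39 and 7.87 per kb against 8.86. Depth was alike, with median bin values of 46.5 and 47 reads. Among the CpGs of the distal end, 32.3% had a PacBio level of at least 80% and 8.89% a level below 20%. In the rest of the ampliconic arm these shares were 19.2% and 18.6%. Most CpGs of both stretches lay between these limits, 58.8% in the distal end and 62.2% in the rest.

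A PacBio level of at least 70% was found in 99 of the 389 distal bins, or 25.4%. The share over all bins of the chromosome was 26.9%, so that the distal end did not stand apart from the chromosome as a whole in this count. It was far above the rest of the ampliconic arm, where 42 of 6700 bins, or 0.627%, reached this level. Levels below 40% were found in 21 distal bins, or 5.40%, against 14.9% over the chromosome and 22.8% in the rest of the ampliconic arm. No bin from 24 Mb to the start of the interval reached 85%, where the highest was 82.1%. In the distal end 23 bins did, or 5.91%, against 4.32% over the chromosome.

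**Figure D1:**
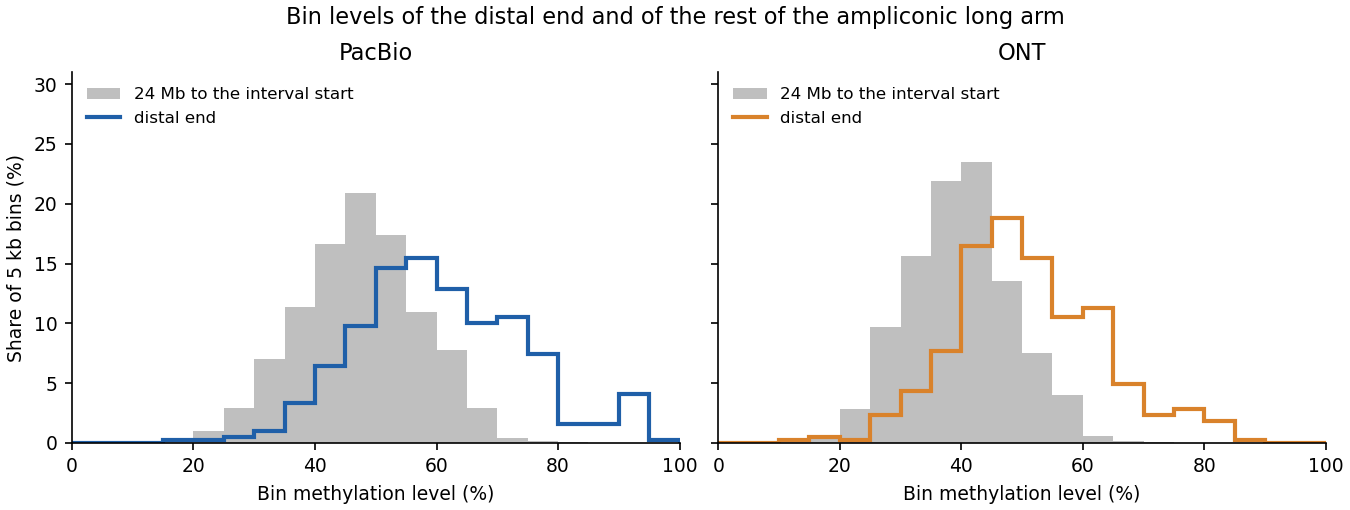
Share of 5 kb bins (vertical axis, percent) by methylation level in steps of 5 points (horizontal axis, percent), for PacBio (left) and ONT (right). The coloured line shows the 389 bins of the distal end and the grey area the 6700 bins from 24 Mb to the interval start. The distal bins lie to the right of the others on both platforms, with means of 60.6% against 47.4% on PacBio.

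At the opposite chromosome end the first 2 Mb of the short arm, which lie in the pseudoautosomal region shared with the X chromosome, were higher and much richer in CpGs. Their 395 bins had a mean of 72.9% on PacBio (SD 18.0) and 63.4% on ONT (SD 16.3), with 27.2 CpGs per kb. The distal end of the long arm lay 12.3 points below them on PacBio and 12.4 points below on ONT. Depth was also unequal, with a median of 72 reads in the short-arm bins, and its part in the difference was not tested.

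The level did not rise or fall steadily towards the chromosome end. In stretches of 250 kb counted back from the end of the interval, the innermost, of 225 kb, averaged 49.7% on PacBio (SD 9.52 over 45 bins) and the next 50.9% (SD 8.69 over 50 bins). The following stretches, which hold SRY and a long noncoding RNA gene, averaged 73.5% (SD 14.9) and 70.3% (SD 14.1). The level then fell to 58.5% (SD 7.37), 57.2% (SD 7.61) and 54.7% (SD 13.6). The outermost 250 kb, most of it RBMY array, averaged 68.5% (SD 9.79). ONT means ranked these stretches in the same order, from 41.6% in the innermost to 61.2% in the stretch of SRY, with 57.8% in the outermost. The profile therefore held a pair of raised parts with lower levels between them.

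Stretches of 100 kb gave more detail. The lowest of them averaged 47.1% on PacBio (SD 10.1 over 20 bins) and the highest, inside the long noncoding RNA gene, 88.7% (SD 6.96 over 20 bins). From 58375001 to 58975000 the 6 stretches lay close together, between 57.0% and 58.9%, with SDs of 7.26 to 9.33 over 20 bins each. The next stretch, from 58975001 to 59075000, was lower, with 47.7% on PacBio (SD 8.48) and 40.8% on ONT (SD 5.46), close to the lowest of all. The Spearman correlation of PacBio level with distance from the end was -0.22 over 389 bins, with higher levels nearer the end, and -0.06 over the 345 bins outside the RBMY array. These values are descriptions, since neighbouring bins share reads and sequence.

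CpG density was between 6.38 and 8.94 per kb in all 250 kb stretches except the outermost, which held 11.2 per kb. The outermost stretch holds most of the RBMY array and a CpG-dense block at the very end. Over the 389 bins PacBio level had a Spearman correlation of 0.19 with CpG number and of -0.06 with depth. Levels on the platforms ranked the bins almost alike, with a correlation of 0.95. ONT was lower by 9.55 points on average.

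**Figure D2:**
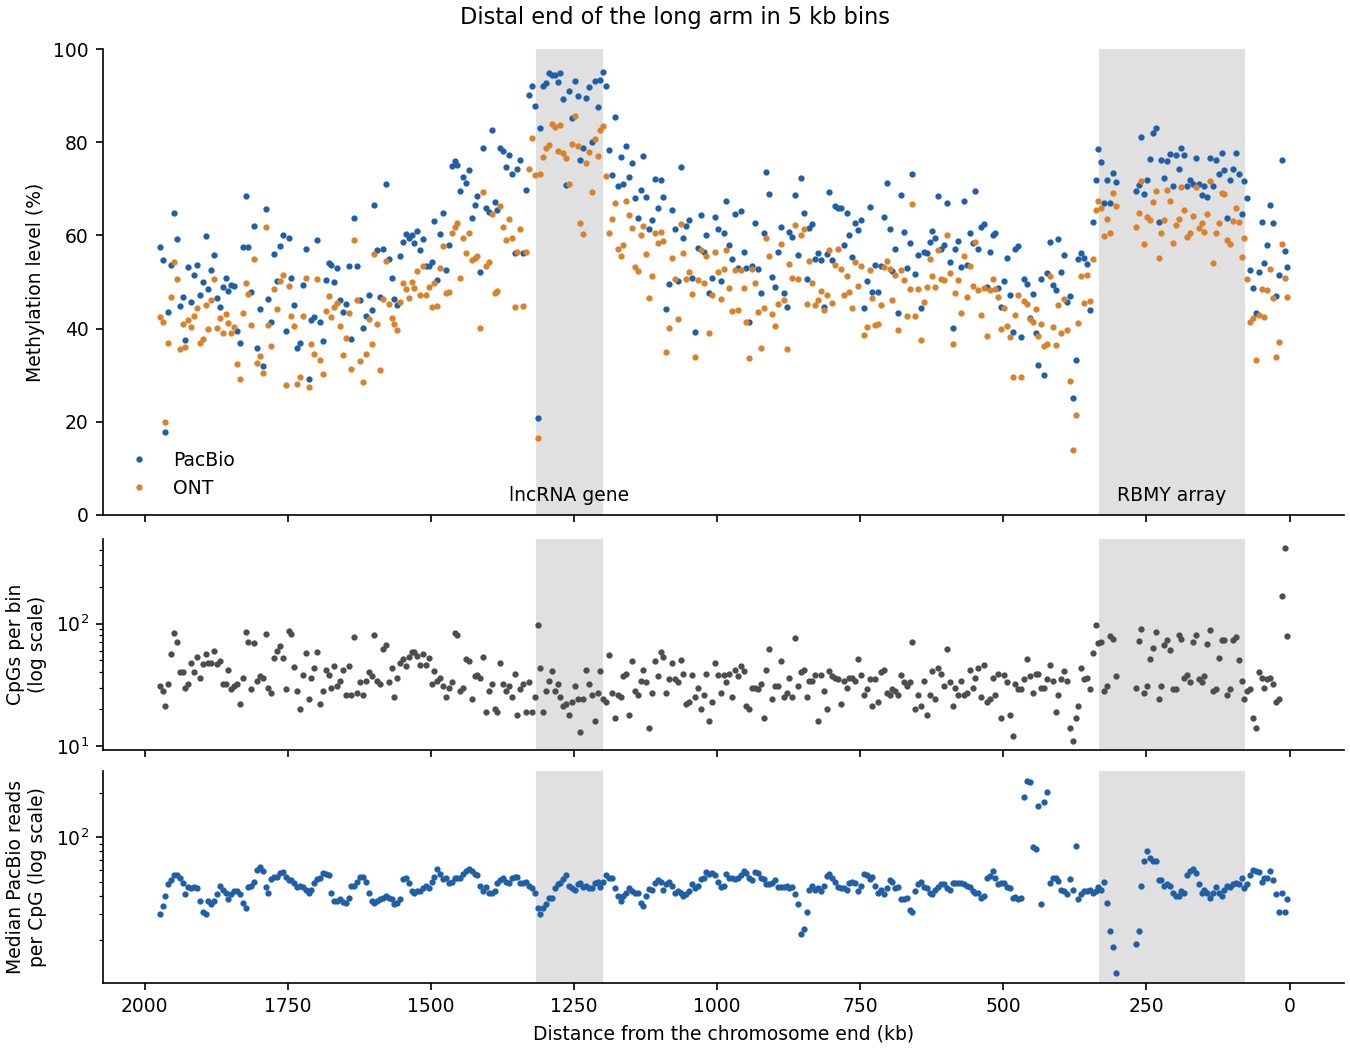
Methylation level (top, percent), CpGs per bin (middle, log scale) and median PacBio reads per CpG (bottom, log scale) of the 389 bins, by distance from the chromosome end in kb, which is at the right. Each point is a 5 kb bin, blue for PacBio and orange for ONT in the top panel, and grey bands mark the long noncoding RNA gene and the RBMY array. The level peaks over the gene at up to 94.9% on PacBio and in the bin just beyond its end at 95.1%, returns to an intermediate level, and is raised again over the array.

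The annotation of the ARS-UCD2.0 assembly placed 32 genes wholly in the interval, of which 15 were protein-coding, 16 were pseudogenes and 1 was a long noncoding RNA gene. The protein-coding genes were 11 RBMY copies and 4 others, and the family names are those of the study's own annotation. ZNF280B (LOC132344717, at 57687938 to 57698996) encodes a zinc-finger protein, TSPY1 (LOC132344718, at 57703319 to 57703846) is a testis-specific protein gene of germ cells, and HSFY (LOC132344719, at 57804860 to 57806697) encodes a protein related to heat-shock transcription factors. SRY lay at 58122906 to 58123595 on the minus strand.

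Apart from the long noncoding RNA gene, none of the gene starts measured in the interval was free of methylation. Which end of LOC132344568 is its start is not known here, since no strand was matched to it. The windows of 1 kb on both sides of the start held at least 10 CpGs at 9 other genes and pseudogenes outside the array, where PacBio levels ran from 38.4% to 73.0% and ONT levels from 33.8% to 66.5%. At the start of ZNF280B 68 CpGs averaged 69.9% on PacBio (SD 21.4) and 66.5% on ONT, while its gene body averaged 52.0% and 48.0%. At TSPY1 the level at the start was 59.7% on PacBio (SD 28.8 over 35 CpGs) and 51.5% on ONT. HSFY had the lowest of these starts, with 38.4% on PacBio (SD 24.8 over 12 CpGs) and 33.8% on ONT, against 59.3% and 53.5% at its end.

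The start of SRY had an intermediate level of 57.5% on PacBio (SD 19.2 over 36 CpGs) and 45.7% on ONT, at a depth of 54 reads. This window covers the whole gene of 690 bp, so its 36 CpGs include the 23 of the body. The body alone averaged 66.5% on PacBio (SD 13.4 over 23 CpGs) and 56.5% on ONT. The CpGs of the window outside the body were therefore lower than the window mean. The 5 kb bin that holds SRY, starting at 58120001, stood at 56.3% on PacBio and 44.7% on ONT. It was lower than its neighbours, which had 73.3% and 74.2% on PacBio and 59.5% and 56.5% on ONT. The dip was not particular to SRY, since the bin starting at 58135001, which holds no gene, also had 56.3% on PacBio and 44.8% on ONT.

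The most contrasted methylation of the interval was at the long noncoding RNA gene LOC132344720, which spans 112.7 kb from 58162079 to 58274819 on the plus strand and begins 38.5 kb beyond SRY. Its start was almost free of methylation, and its body held most of the highest bins of the distal end. The annotation table gives no function for this RNA. Around the start lay a run of 72 consecutive CpGs, each below 20% on PacBio, from 58161596 to 58163002. The run began 483 bp before the annotated start and reached 923 bp into the gene.

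Over these 72 CpGs the mean level was 3.55% on PacBio, with a highest value of 10.4%, and 2.06% on ONT, with a highest value of 13.4%. By the caller's estimated counts, 48 of 2370 PacBio read observations were modified, which is 2.03% with a 95% Wilson interval from 1.53% to 2.67%. Neighbouring CpGs were read on the same molecules, so these observations are not independent and the interval is too narrow. It does not hold the mean score of 3.55%, which is another measure. Median depth in the run was 33 reads. In the 500 bp before the annotated start 27 CpGs averaged 3.14% on PacBio and in the 500 bp after it 29 CpGs averaged 3.42%. Levels rose within about 1 kb on both sides of the run. In the window from 1 to 0.5 kb before the start 5 CpGs averaged 33.9% on PacBio and 19.2% on ONT, and from 1 to 1.5 kb after it 4 CpGs averaged 53.9% and 24.5%. Farther out, from 1.5 to 1 kb before the start 4 CpGs averaged 88.6% on PacBio and 80.9% on ONT, and from 2 to 2.5 kb after it 5 CpGs averaged 87.1% and 72.3%. Not all windows farther out were as high. From 3500 to 4000 bp after the start 2 CpGs averaged 36.65% on PacBio and 51.1% on ONT. From 4000 to 4500 bp 4 CpGs averaged 59.55% and 40.6%.

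In the remainder of the gene 624 CpGs averaged 88.9% on PacBio (SD 13.2) and 77.2% on ONT (SD 13.8), and 86.1% of them had a PacBio level of at least 80%. The 21 bins wholly inside the gene averaged 88.4% on PacBio (SD 6.84), from 70.8% to 94.9%, and 76.7% on ONT (SD 6.47). At the annotated end of the gene 15 CpGs within 1 kb averaged 96.1% (SD 0.76) on PacBio and 87.9% on ONT. The gene body was poorer in CpGs than the rest of the distal end, with 5.42 per kb.

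The highly methylated stretch reached beyond the gene on both sides. Of the 23 distal bins with a PacBio level of at least 85%, 17 overlapped the gene. All lay wholly or partly within 25 kb of it, between 58145001 and 58300000. Levels of at least 70% were found in all but 1 bin from 58145001 to 58330000, a stretch of 185 kb and 37 bins, and the exception was the bin of the gene start. This bin, starting at 58160001, had 98 CpGs, more than any other outside the chromosome end, and the second lowest PacBio level of the interval, with 20.7% on PacBio and 16.5% on ONT. The highest bins, starting at 58275001, 58180001 and 58200001, had PacBio levels of 95.1%, 94.9% and 94.9%.

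The body stood above both flanks. In the 100 kb before the gene 19 bins averaged 74.2% on PacBio (SD 10.1) and 60.0% on ONT (SD 10.1), and in the 100 kb after it 19 bins averaged 74.4% (SD 9.01) and 60.7% (SD 8.33). The difference of the body from the flanks was 14.2 and 14.0 points on PacBio and 16.8 and 16.0 points on ONT. These flanks were themselves above the mean of the distal end. Median depth was 46 reads in the body, 49 before it and 43 after it.

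**Figure D3:**
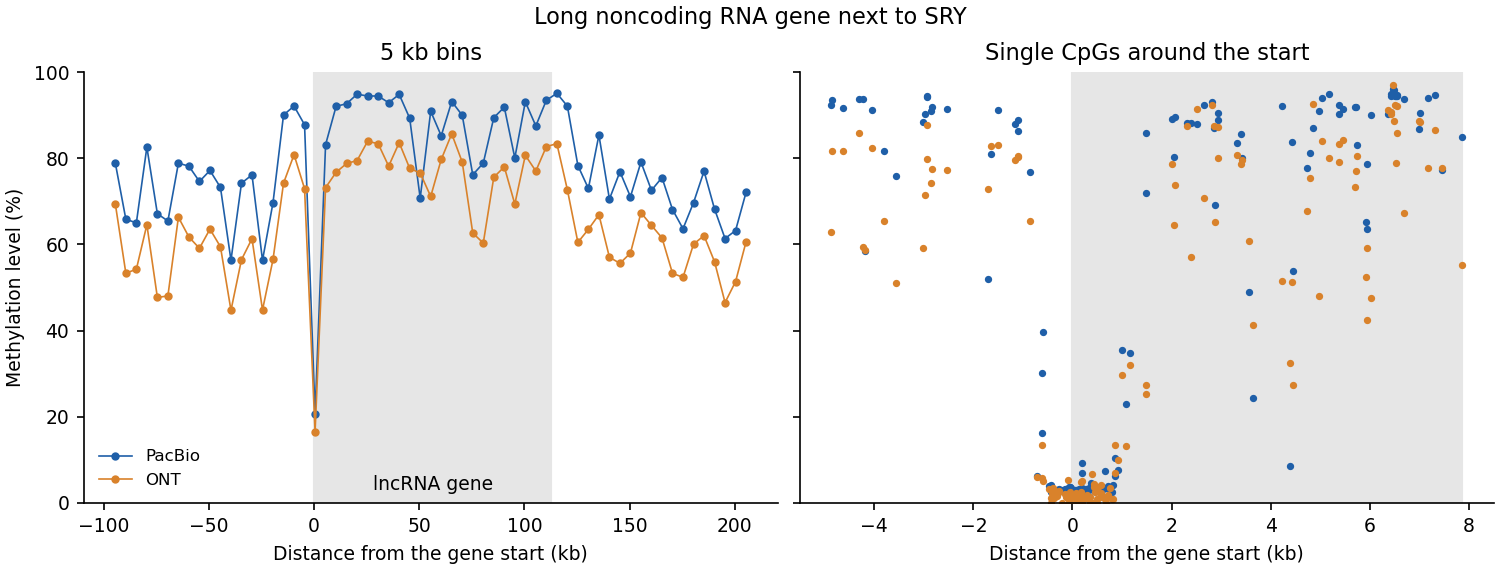
Methylation level (vertical axis, percent) at the long noncoding RNA gene by distance from its start in kb, for 5 kb bins from 100 kb before to 100 kb after the gene (left) and for single CpGs around the start (right). Blue is PacBio, orange is ONT and grey marks the gene. The bin at the start falls to 20.7% on PacBio between bins of 80% and more, and the single CpGs show the run near 0 that ends within 1 kb of the start.

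Short runs of low CpGs were also found elsewhere. The interval held 16 runs of at least 5 consecutive CpGs below 20% on PacBio, and the 15 others held 5 to 10 CpGs each. Of these, 10 lay before SRY and 5 beyond the long noncoding RNA gene. No count of such runs over the chromosome is given, so whether 16 is many or few cannot be said. Single CpGs below 20% were 8.89% of the distal end and 18.6% of the rest of the ampliconic arm. The lowest bin of the interval, starting at 57510001, held one of them, and its 21 CpGs averaged 17.8% (PacBio) and 19.9% (ONT). The third lowest, starting at 59095001, was the poorest in CpGs, with 11, and stood at 25.2% on PacBio and 14.0% on ONT. The other sparse bins, starting at 58990001 and 58235001, held 12 and 13 CpGs with PacBio levels of 39.3% and 76.2%, so that the sparsest bins shared no common level.

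The pseudogenes outside the array had intermediate levels. Both SHROOM2 pseudogenes, remnants of a gene for a cytoskeletal protein, had body levels of 60.0% and 59.9% on PacBio over 167 and 33 CpGs, with 50.5% and 47.2% on ONT. At their starts the PacBio levels were 73.0% and 71.6%. The HSFY pseudogene LOC132344556 had 55.3% on PacBio over 12 CpGs at its start. The PSMB6 pseudogene LOC132344721, at 59458669 to 59459386 close to the chromosome end, had 57.8% on PacBio (SD 28.6 over 14 CpGs) and 41.1% on ONT at its start.

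A cluster of bins with raised PacBio depth surrounded the PLCXD1 pseudogene LOC132344557, at 59015230 to 59023731. All 9 bins of the interval with a median depth over 80 reads lay between 59010001 and 59105000, with depths of 83 to 240 reads. The share of such bins over the chromosome is not given. They were not particular to the interval, since the deepest bin in the rest of the ampliconic arm had 344 reads. The 9 deep bins averaged 41.8% on PacBio (SD 8.55) and 39.1% on ONT (SD 7.55). The 10 bins of lower depth between them averaged 49.2% (SD 9.65) and 38.2% (SD 10.4). PacBio exceeded ONT by 2.72 points on average in the deep bins (SD 7.82) and by 9.71 points (SD 3.995) in the other bins of the interval. Single deep bins ran from -6.34 to 15.2 points, and 2 of the 9 lay above the mean of the other bins, so the small mean gap was not shared by all of them. Over the 67 CpGs of the pseudogene body, read at a depth of 239, PacBio gave 42.8% and ONT 41.3%.

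ONT exceeded PacBio in 6 of the 389 bins, or 1.54%, against 2.22% over the chromosome, and 3 of the 6 belonged to the deep bins. These 3, starting at 59030001, 59035001 and 59045001, had PacBio levels of 39.1%, 32.1% and 30.0% against ONT levels of 44.3%, 38.3% and 36.3%. Depth over 80 reads also marked 4 of the low runs, where PacBio levels of 9.43% to 12.5% stood beside ONT levels of 25.5% to 29.8%. In the 11 short runs of lower depth ONT was above PacBio as well in 10, with 4.38% to 10.97% on PacBio and 8.38% to 21.7% on ONT. The runs were chosen for low PacBio values, so a higher ONT level in them follows in part from that choice. The part of depth in these levels was not tested.

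The RBMY array held 11 copies of the gene, from 59144453 to 59397196 on the plus strand, and was methylated throughout. Its bins averaged 73.1% on PacBio (SD 4.61 over 44 bins) and 63.6% on ONT (SD 4.48). The other 345 distal bins averaged 59.0% (SD 13.9) and 49.5% (SD 12.1), which gives a difference of 14.1 points on both platforms. The array was less variable than the rest, with PacBio bins from 62.9% to 83.2%, and lay 15.3 points below the body of the long noncoding RNA gene. It was also richer in CpGs, with 10.5 per kb against 7.54.

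The array was built of repeated units, each with a pseudogene of 953 bp followed by an RBMY copy. The study's annotation assigned 10 of these pseudogenes to EI24, a gene of the endoplasmic reticulum, and gave the last one, LOC132344568, no family name. From one pseudogene to the next the distance was 23935 to 23945 bp. The copies were of unequal annotated length. In units 1, 5 and 11 the gene was 13355 to 13362 bp long and began 3364 bp after the unit start, while the 8 others were 10942 to 10948 bp long. Over the first 23900 bp of a unit, the first 10 units held 246 to 250 CpGs and the outermost 201.

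Levels of whole units were close to each other. In the 9 units where all CpGs had 10 or more PacBio reads, the mean was 74.3% on PacBio (SD 1.89), from 72.1% in unit 8 to 77.1% in unit 4. On ONT the first 10 units averaged 65.3% (SD 0.72), from 64.0% in unit 1 to 66.7% in unit 4, and the outermost unit had 60.7%. The 11 copies are annotated as RBMY and LOC132344528 to LOC132344537.

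Within the unit the same positions tended to be high or low in neighbouring copies. Neighbouring units shared 193 to 249 CpGs at the same offset within 10 bp on ONT, and the levels of these CpGs had Pearson correlations of 0.81 to 0.91 in 10 neighbour pairs. On PacBio the correlations were 0.62 to 0.84 in 9 pairs. The lowest of these were for pairs with few covered CpGs, units 1 and 2 with 0.62 over 110 CpGs and units 3 and 4 with 0.66 over 91. Because copies are nearly identical, reads of one can be placed on another, and a shared pattern does not show that the copies were measured separately.

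The CpG-rich parts of the unit were methylated. The 8 windows of 1 kb with over 10 CpGs had PacBio levels of 69.1% to 84.0%, and the 16 with fewer covered a wider range, from 54.0% to 90.5%. Over the 24 windows the Spearman correlation of level with CpG number was 0.32 on PacBio and 0.45 on ONT. The stretch from 3 to 5 kb after the unit start held 55 to 57 CpGs in the first 10 units, and it covers the start of the longer annotated copies and lies just before the start of the shorter ones. In the 8 of these units where all CpGs had 10 or more PacBio reads, it averaged 80.2% on PacBio (SD 2.34) and 72.3% on ONT (SD 0.96). In the outermost unit it had 79.7% on PacBio and 67.7% on ONT. A second dense part, in the last kb before the next unit, held 25 CpGs per kb and averaged 74.2% on PacBio (SD 3.88 over 8 units) and 67.0% on ONT. The lowest 1 kb windows, at 10 to 11 and 16 to 17 kb, had 54.0% and 55.5% on PacBio (SDs 6.92 and 5.53) with 5 and 3 CpGs each. The highest, at 13 to 14 kb, had 90.5% (SD 2.13) with 7 CpGs. On ONT the lowest windows were at 16 to 17 and 11 to 12 kb, with 41.1% and 44.0% (SDs 3.56 and 2.37), and the highest was at 18 to 19 kb, with 78.5% (SD 1.85).

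At the starts of the RBMY copies the level was 78.1% on PacBio (SD 3.79 over 10 copies), from 70.7% at LOC132344528 to 85.1% at LOC132344531, and 69.3% on ONT (SD 1.83 over 11 copies). The windows of 1 kb on both sides held 22 to 46 CpGs. Starts of longer and shorter copies lie at different places in the unit, so the range and SD do not compare like positions. The longer LOC132344531 had 45 CpGs in its window, and the shorter LOC132344528 had 23 at a depth of 14 reads. The copy at LOC132344529 had no PacBio CpG of 10 reads at its start, and its ONT level there was 72.2% over 23 CpGs. Gene ends were lower, with 69.8% on PacBio (SD 3.70 over 9 copies) and 53.2% on ONT (SD 3.10 over 11 copies), and bodies had 72.5% (SD 2.27 over 10 copies) and 62.2% (SD 1.52 over 11 copies). All measured copies had starts far above that of the long noncoding RNA gene, which had 5.90% on PacBio over 78 CpGs in the same window.

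The pseudogene bodies of the array, with 5 CpGs each, were lower than the RBMY starts. They averaged 62.1% on PacBio (SD 5.98 over 10 pseudogenes) and 49.98% on ONT (SD 4.32 over 11). Around their far ends, where 32 CpGs lay within 1 kb, the level was 72.4% on PacBio (SD 3.35) and 63.9% on ONT (SD 1.52).

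PacBio depth was uneven over the first units of the array. Median depth was 43 reads in unit 1, 13.5 in unit 2, 20 in unit 3 and 69 in unit 4, and 40 to 51 reads in units 5 to 11. In unit 2 only 112 of 249 CpGs had 10 or more reads and in unit 3 only 91 of 249. Between 59184679 and 59198232 the PacBio data had no value for 193 CpGs, for which ONT gave a mean of 67.3% (SD 15.5). The 6 bins left out of the members belong to these units, and 4 other bins lying wholly or partly in units 2 and 3 entered the PacBio level of the array, with a mean of 71.4% (SD 1.67). On ONT, units 2 and 3 had 65.2% and 66.2%, within 1 point of the mean of the first 10.

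**Figure D4:**
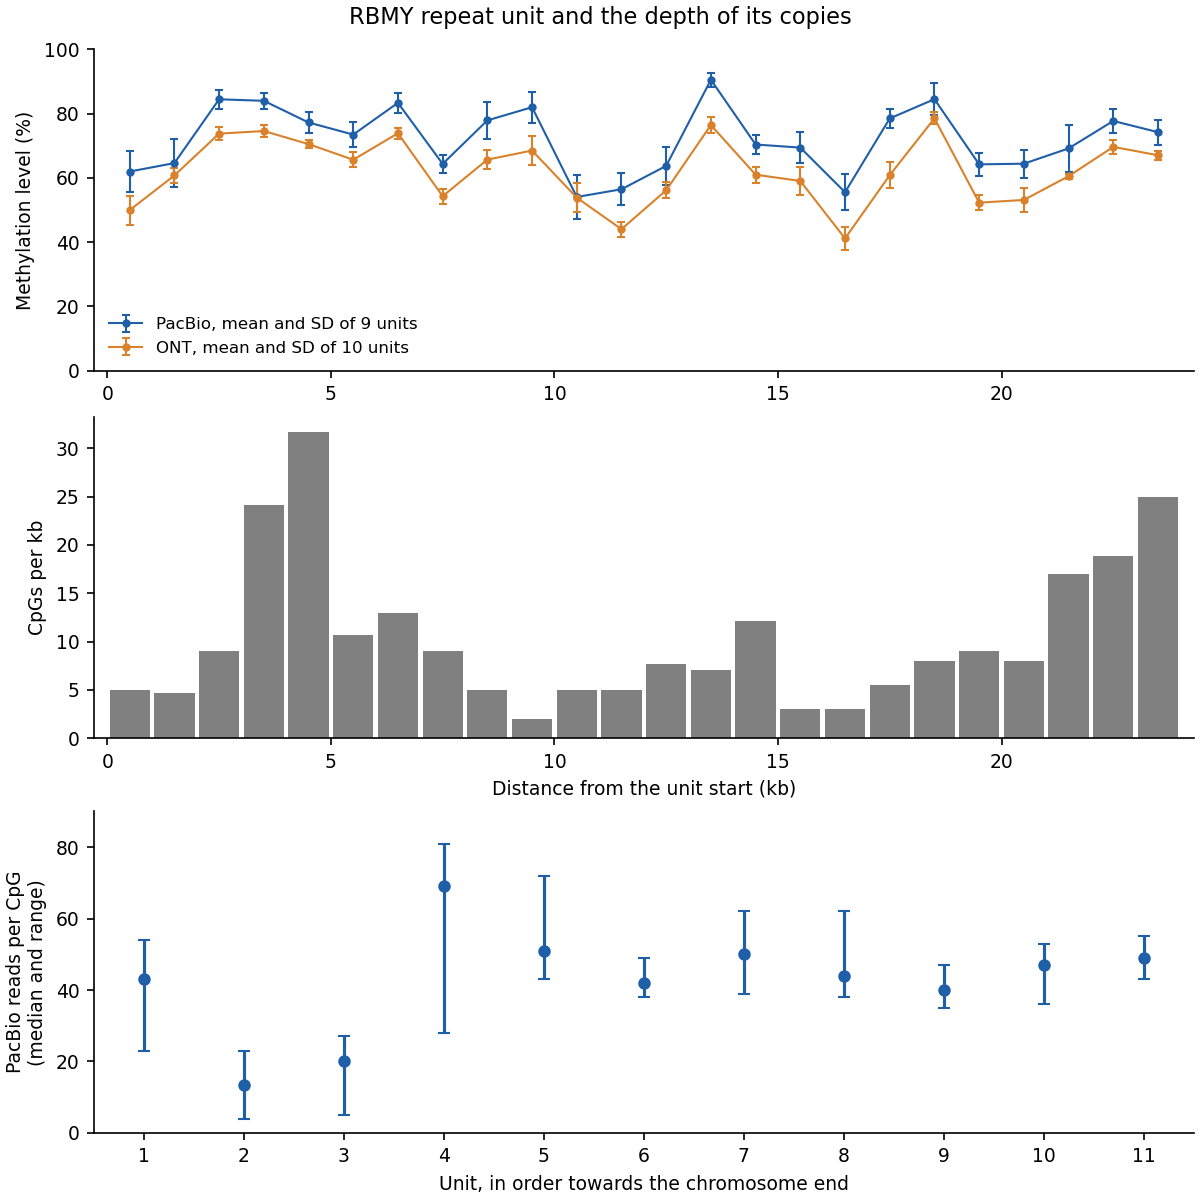
Methylation level (top, percent) and CpGs per kb (middle) along the RBMY unit in 1 kb windows, and PacBio reads per CpG of each of the 11 units (bottom). Points of the top panel are means over units, with SD bars over up to 9 units on PacBio (blue) and 10 units on ONT (orange), and the bottom panel gives the median with bars to the lowest and highest CpG that has a PacBio row. Both CpG-rich parts of the unit were methylated, and depth fell to medians of 13.5 and 20 reads in units 2 and 3 and rose to 69 in unit 4.

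Beyond the array the level fell again. The 12 bins from 59400001 to 59460000 averaged 55.6% on PacBio (SD 7.97), from 43.3% to 68.1%, and 43.3% on ONT (SD 6.33), with 5.73 CpGs per kb. The chromosome then ended in a block very rich in CpGs. From 59462515 to 59471083 there were 644 CpGs with at least 10 reads in 8.57 kb, or 75.2 per kb, against 5.51 per kb in the 20 kb before it. No CpG was called in the last 5205 bp of the chromosome. The block lies inside the stretch that the study's chromosome table lists as telomere and that its text describes as a simple repeat, whose unit holds no CpG, and the CpGs placed there are in conflict with that description. The annotated PSMB6 pseudogene LOC132344721 also lies inside that stretch, and its place does not rest on the CpG positions. No sequence was at hand to settle this conflict, and the placement of CpGs was checked only at HSFY and ZNF280B copies. The bins of this block, starting at 59460001, 59465001 and 59470001, held 169, 410 and 79 CpGs, and the first 2 of these had more than any other bin of the interval.

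The block had a higher inner and a lower outer part on PacBio. The division was placed where it best separates PacBio levels, so that the PacBio difference, the gap between the platforms and the shares of CpGs by PacBio level all follow from that choice and are descriptions. The inner 4.56 kb averaged 75.2% on PacBio (SD 14.1 over 294 CpGs) and 57.9% on ONT (SD 14.5). The outer 3.99 kb averaged 49.7% on PacBio (SD 13.9 over 350 CpGs) and 47.6% on ONT (SD 11.8). The gap between the platforms was 17.3 points in the inner part and 2.09 points in the outer. In the outer part 94.9% of CpGs had a PacBio level between 20% and 80%, against 52.0% in the inner part and 58.8% over the whole distal end.

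Depth differed between these parts as well, with medians of 42 reads in the inner and 31 in the outer, and its part in the levels was not tested. In 1 kb windows PacBio levels were 73.7% to 80.3% from 14 to 10 kb before the chromosome end, then 66.4%, and 44.97% to 55.7% in the last 4 windows that held CpGs. ONT levels in the same windows were 56.8% to 60.4%, then 54.5%, and 46.2% to 49.0%. The outermost of these windows, with 59 CpGs, had 55.7% on PacBio (SD 15.1) and 46.8% on ONT (SD 14.4). Inside the block the ONT rows of the separate strands differed by 14.3 points on average at a CpG, and in the 20 kb before it by 17.3 points.

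**Figure D5:**
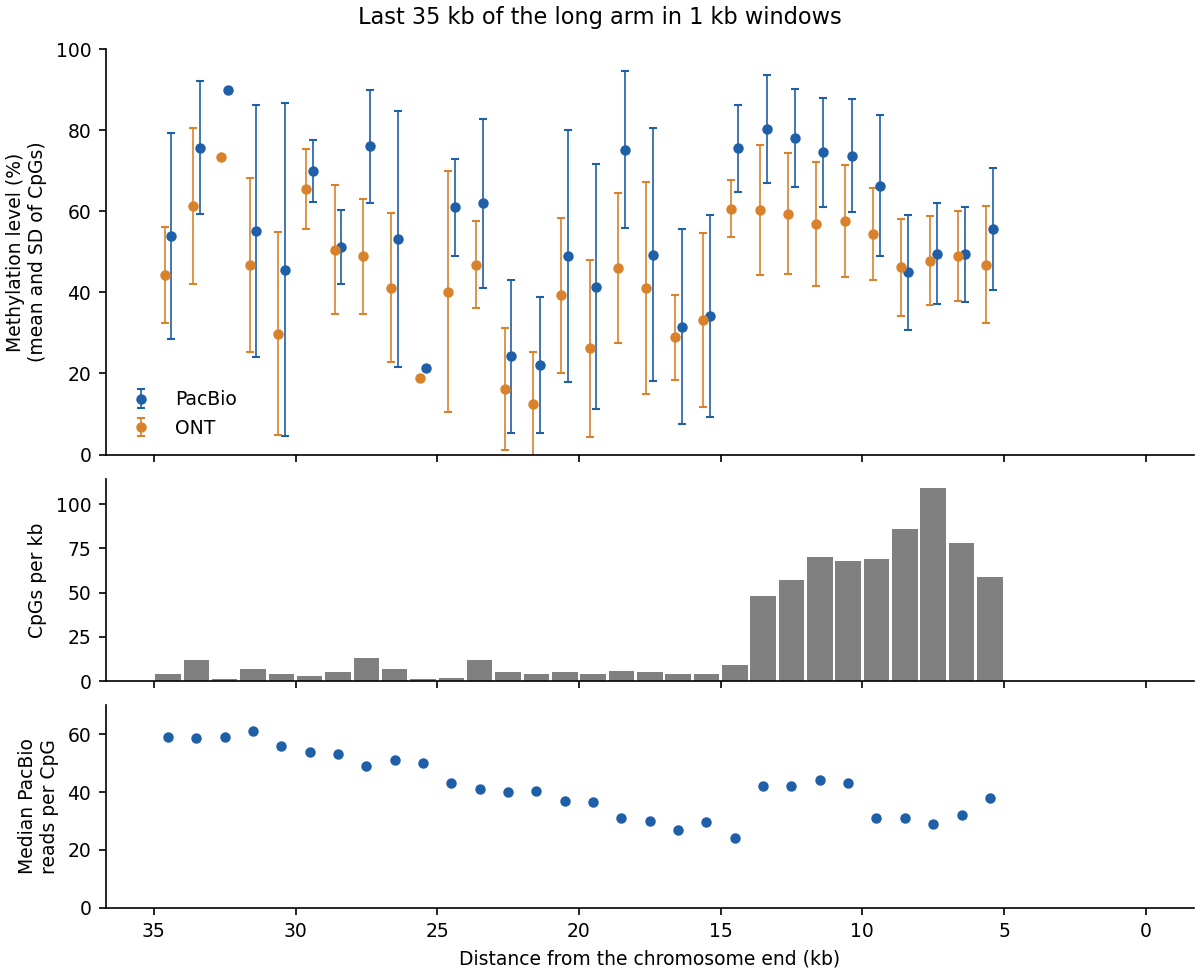
Methylation level (top, percent), CpGs per kb (middle) and median PacBio reads per CpG (bottom) over the last 35 kb of the long arm in 1 kb windows, by distance from the chromosome end in kb, which is at the right. Points are means over the CpGs of a window with SD bars, blue for PacBio and orange for ONT. The CpG-dense block begins near 14 kb, its PacBio level falls from 80.3% to between 44.97% and 55.7% in its outer 4 kb, and the last 5 windows hold no called CpG.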

How the data were processed

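Processed methylation calls of 2 lung DNA libraries were used, 1 per platform. For PacBio, the authors estimated methylation probabilities with Primrose, aligned with pbmm2 and summarised per CpG with pb-CpG-tools. The deposited file gives a score in percent, a count of reads, and the estimated counts of reads in either state, modified or unmodified. For ONT, the authors called bases with Dorado, aligned with Winnowmap and used modbam2bed. The Dorado model covered hydroxymethylated as well as methylated cytosine, and thresholds were set for methylated and unmethylated bases. The ONT percent and the PacBio score therefore need not be the same measure. The deposited ONT file gives a percent per strand of each CpG. Missing calls may stand as 0 there: 0.715% of ONT rows in the interval were at 0.

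The files run in opposite directions. Positions were 59476288 minus the PacBio start, and the ONT lower row plus 20555. Oppositely oriented HSFY and ZNF280B copies beyond 50 Mb shared at least 25 CpG positions in 30 of 31 pairs, and these 30 all lay within 100 bp of the annotated placement. The ONT level is the mean of both rows. CpGs needed 10 PacBio reads for both platforms, except where ONT is given over all CpGs of array units and gene copies. Genes came from the RefSeq table of ARS-UCD2.0, with strand and family for 31 of 32 from the study's annotation. Gene windows were 1 kb on both sides of each end. Genes named were the RBMY copies, SRY and others with 10 or more CpGs in their windows. Bins named were the 3 lowest, highest, densest and sparsest and those nearest the end, and others were chosen after their values were seen. Members, lists and comparisons were chosen with earlier results of these data known. No test was made, with 1 library per platform, and no sequence was at hand. Calculations used Python 3.11.15, numpy 2.4.6 and pandas 2.3.3, and were tested on simulated data.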

Additional observations from a re-analysis of the deposited data

Results flagged for a closer look

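The ONT data hold 193 CpGs of units 2 and 3 of the RBMY array that have no PacBio row and enter no bin. They were singled out as signal outside the main measurement, and their mean ONT level was 67.3% (SD 15.5 over CpGs). Their ONT depth is unknown.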

How the results depend on the processing

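No paired analysis was possible because each platform is 1 library. Of 79 alternative values, 62 moved by less than the 95% Wilson interval of the main value. This interval was computed with 1 observation per PacBio read and bin and borrowed for ONT. No difference changed sign, and the values that are levels in percent could not do so. The mean over CpGs in place of bins moved the PacBio level of the distal end to 61.8% and the ONT level to 52.4%, and the differences from the rest of the ampliconic arm to 11.2 and 9.69 points. With stretches of 100 kb, the outermost was 11.99 points above the innermost on PacBio, against 18.8 points with 250 kb. The remaining alternatives that moved values were chosen after seeing the data. Without the RBMY array, the PacBio and ONT levels were 59.0% and 49.5%, and the differences 11.6 and 9.63 points. Without the bins of the long noncoding RNA gene, the levels were 59.1% and 49.6% and the differences 11.6 and 9.76 points. Without both, 322 bins gave 57.1% and 47.7%, and differences of 9.73 and 7.85 points. Leaving out the bins of depth over 80 or the last 3 bins changed no value beyond its interval. Limits were the single library per platform, the unknown ONT depth, and PacBio depths under 10 reads in units 2 and 3 of the array.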
